A study of Mus musculus with 50 samples.

Results

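The 39 ZBTB genes of the count table, out of 16614 rows, were described in single mouse oocytes with and without Zfp36l2. They are all rows whose symbol is Zbtb followed by a number and at most 1 letter. The family was chosen because many of its members were higher in knockout oocytes. The comparison between genotypes is therefore a description of these genes and not evidence about the family. Knockout oocytes came from cKO-Zfp36l2 females, in which Zfp36l2 is conditionally deleted, and control oocytes from F/F- females, which carry the floxed allele. All females were 5 weeks old and received 10 IU of PMSG, a gonadotrophin that makes follicles grow. Their oocytes were collected 46 hours later at the germinal vesicle stage and held in meiotic arrest with 5 μM milrinone. The labels name neither the Cre driver nor the strain. In all there were 24 knockout oocytes from 4 mice (1, 7, 8 and 8 oocytes) and 26 floxed oocytes from 4 mice (5, 7, 7 and 7).

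ZBTB proteins join an amino-terminal BTB domain to zinc fingers of the C2H2 type. The zinc fingers bind DNA. The BTB domain lets the proteins pair with each other and recruits corepressors such as NCOR1 and BCOR with their histone deacetylases, so that most members studied repress transcription. The family is best known from blood cells, where several members fix the fate of lymphocytes and dendritic cells, and from a small group that binds methylated CpG sites. ZFP36L2 is an RNA-binding protein that recognises UAUUUAU in the 3′ ends of mRNAs and speeds up their decay.

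Total counts per oocyte were 4332108 to 6233840 in knockout and 1746007 to 6120317 in floxed oocytes. Counts were summed over the oocytes of each mouse, which is the replicate. Levels are CPM, the count of a gene per 1000000 counts of that sum. The sum of knockout mouse 1 rests on a single oocyte. Zfp36l2 itself was at 2.00 ± 0.806 CPM in knockout and 3.27 ± 0.934 CPM in floxed mice (SD, n = 4 each) and was not significantly lower, so its row does not check the genotype labels. All 12 oocyte markers listed were present, with summed levels of 4815 to 5295 CPM in knockout and 4590 to 5692 CPM in floxed mice, with 2 called higher and 1 called lower in knockout. The 15 granulosa and cumulus markers in the table summed to 167 to 317 CPM in knockout and 196 to 277 CPM in floxed mice, with none called higher in knockout and 2 called lower. The 4 immune markers in the table summed to 2.77 to 7.42 CPM in knockout and 5.61 to 11.8 CPM in floxed mice, with Lyz2 under 1 CPM in every mouse and 1 marker called higher in knockout. Endothelial markers were lower in knockout, with 18.7 to 35.7 CPM against 92.6 to 179.9 CPM in floxed mice, nearly all of it Pecam1. The part of these markers in the results on ZBTB genes was not tested.

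The longest annotated 3′ untranslated region of each tested member was searched for TATTTAT on the sense strand, with overlapping matches counted. The motif was present in 22 of 37 tested members (59.5%) and in 29.1% of the 13937 tested genes with a 3′ untranslated region. In the shortest annotated region it was present in 10 of 37 members (27%) and in 17.9% of those genes. The members had longer 3′ untranslated regions, with a median of 2541 bases against 1095 bases for all tested genes. Per kilobase the motif was equally frequent, at 0.283 in the members and 0.289 in all tested genes. In the longest region the motif was present in 5 of the 11 members called higher in knockout oocytes. It was present in 3 of the 4 called lower and in 14 of the 22 not called. In the shortest region these counts were 3, 3 and 4. The longest regions of the 3 sets had medians of 2446, 3485 and 2229 bases. Per kilobase of them the motif was at 0.268 in those higher, 0.199 in those lower and 0.306 in those not called. The same values for all tested genes were 0.286, 0.273 and 0.292. Over all tested genes, the longest region had it in 32.7% of those called higher, 26.4% of those lower and 28.8% of those not called. The shortest region had it in 21.1%, 15.2% and 17.7%. Zbtb5, the member with the largest difference, had none in its 2128 bases. A match is a description of the letters and does not show binding, and which of several annotated ends oocytes use was not analysed here.

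The sites of the called members are printed 5′ to 3′ from GENCODE transcripts on mm10 because these are the members that differed between genotypes. Capitals mark the motif and lower-case letters the bases around it. The first 10 belong to members called higher in knockout oocytes.
Zbtb43 (chr2:33450523-33450551, minus strand): gaaagttatttTATTTATgcaagtcaggt
Zbtb34 first site (chr2:33406938-33406966, minus strand): ctggtcagggtTATTTATtaaattttata
Zbtb34 second site (chr2:33406265-33406293, minus strand): gaattgaagacTATTTATtcaaatgatat
Zbtb44 first site (chr9:31070206-31070234, plus strand): ttgatctaaaaTATTTATgaagccacgag
Zbtb44 second site (chr9:31073086-31073114, plus strand): gccatgaggaaTATTTATaactaaataca
Zbtb44 last site (chr9:31073155-31073183, plus strand): gcttatactagTATTTATccctctttcgt
Zbtb11 first site (chr16:56007743-56007771, plus strand): attcttgactcTATTTATtttaactgctt
Zbtb11 second site (chr16:56007827-56007855, plus strand): tttgtataattTATTTATctctatgggag
Zbtb1 first site (chr12:76389392-76389420, plus strand): tttttaagattTATTTATttattacatgt
Zbtb1 second site (chr12:76389396-76389424, plus strand): taagatttattTATTTATtacatgtaagt
Those of the members called lower follow.
Zbtb38 (chr9:96683189-96683217, minus strand): atatggcagaaTATTTATacatacaaata
Zbtb39 (chr10:127745053-127745081, plus strand): ctagacattaaTATTTATtttattattat
Zbtb41 (chr1:139451262-139451290, plus strand): ctctaatttatTATTTATcaagaggtttg
The Zbtb1 sites overlap each other in one AT-rich run, whereas the Zbtb44 sites start at bases 1462, 4342 and 4411 of a region of 7130 bases. Zbtb43 and Zbtb34, which are neighbours on chromosome 2, carry their sites near the far end of the 3′ untranslated region, starting at base 3157 of 3410 in Zbtb43 and at bases 4016 and 4689 of 4863 in Zbtb34.

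Levels differ widely within the family. Levels were divided by the length of a gene's exons, taken over all its annotated transcripts and not over those that oocytes use. The order depends on that length: Zbtb37, with the highest floxed level at 152 CPM, came 8th over 18814 bases. Floxed levels ran up to 26.6 CPM per kilobase for Zbtb48, whose protein TZAP binds telomeres. In knockout oocytes the highest member was Zbtb8b, at 26.5 CPM per kilobase, with Zbtb48 next at 26.0. Zbtb10 and Zbtb21 followed in both genotypes, Zbtb10 at 22.8 CPM per kilobase in knockout and 16.3 in floxed, and Zbtb21 at 19.6 in knockout and 14.7 in floxed. Zbtb5 stood apart in this order: it was 15th in knockout oocytes, at 8.55 CPM per kilobase, and 33rd in floxed oocytes, at 0.404 CPM per kilobase. At the low end of the floxed order were Zbtb16 at 0.102, Zbtb8a at 0.0464, Zbtb3 at 0.0433 and Zbtb4 at 0.0423 CPM per kilobase. Zbtb48 and Zbtb8b, the top 2, traded places between the genotypes.

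**Figure D1:**
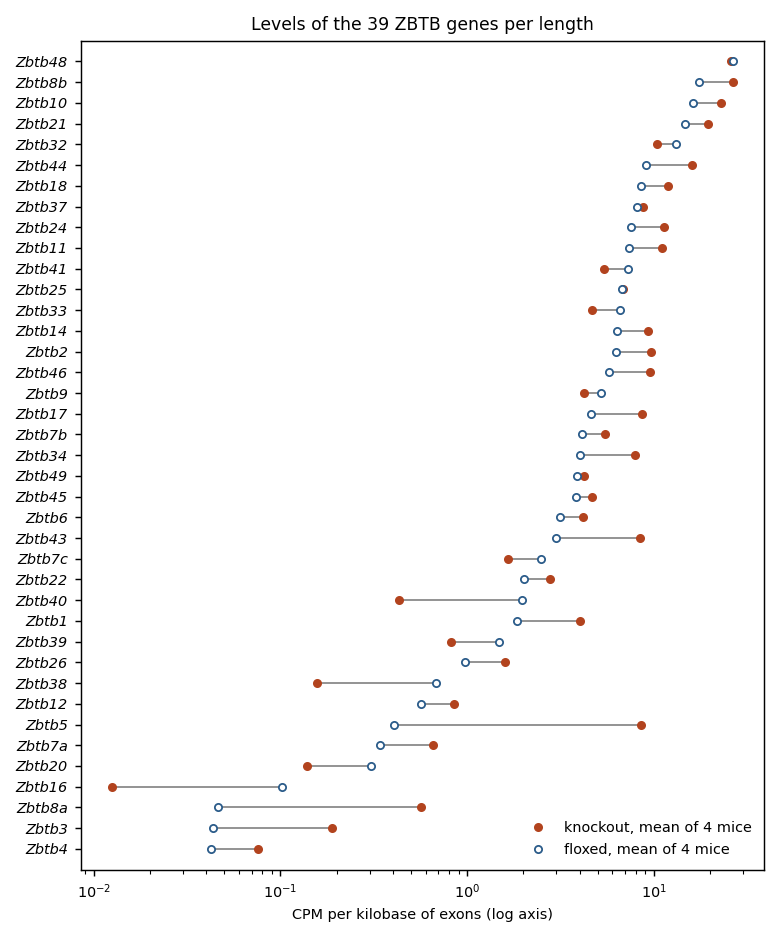
Mean level of each of the 39 ZBTB genes in CPM per kilobase of exons (log axis) over 4 knockout mice (filled) and 4 floxed mice (open), ordered by the floxed level. Zbtb5 lies at 8.55 in knockout and 0.404 in floxed oocytes, the widest gap among genes above 1 CPM per kilobase in either genotype.

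Taken over the family, 37 of 39 members passed the filter on low counts. Of these 11 were called higher in knockout oocytes (29.7%), where 14.4% of all 15029 tested genes were (edgeR quasi-likelihood test, adjusted p under 0.05). Lower calls were made for 4 members (10.8%), where the share over all tested genes was 13.2%. Calls in either direction numbered 15 (40.5%), where the share over all tested genes was 27.6%. The median log2 fold change was 0.44 over the 37 members and −0.01 over all tested genes, and 26 members had a positive and 11 a negative value. Since the family was picked on this contrast, nothing is read from these shares. All knockout mice lay above all floxed mice for 13 members, where this held for 16.0% of tested genes, and below them for 4 members, where it held for 15%. Without floxed mouse 4 the higher calls were 6, and without knockout mouse 2 or 3 they were 7. Without floxed mouse 2, 3 or 4 the lower calls were 2, and without mouse 1 of both genotypes they were 7. The share of all tested genes called in each of these fits is not given, so nothing about the members is read from these counts.

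The exons of the tested members summed to a median of 6138 bases, against 4126 bases for all tested genes. Among the 4214 tested genes of at least 6138 bases, 16.2% were called higher and 14% lower. The summed CPM of all 39 members was 1784, 1868, 1785 and 1713 in knockout mice 1 to 4 and 1378, 1276, 1413 and 1274 in floxed mice 1 to 4. The genotypes did not overlap, and without Zbtb5 the sums were 1672 to 1798 CPM in knockout and 1273 to 1410 CPM in floxed mice. Since the family was picked on this contrast, nothing is read from these sums either.

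**Figure D2:**
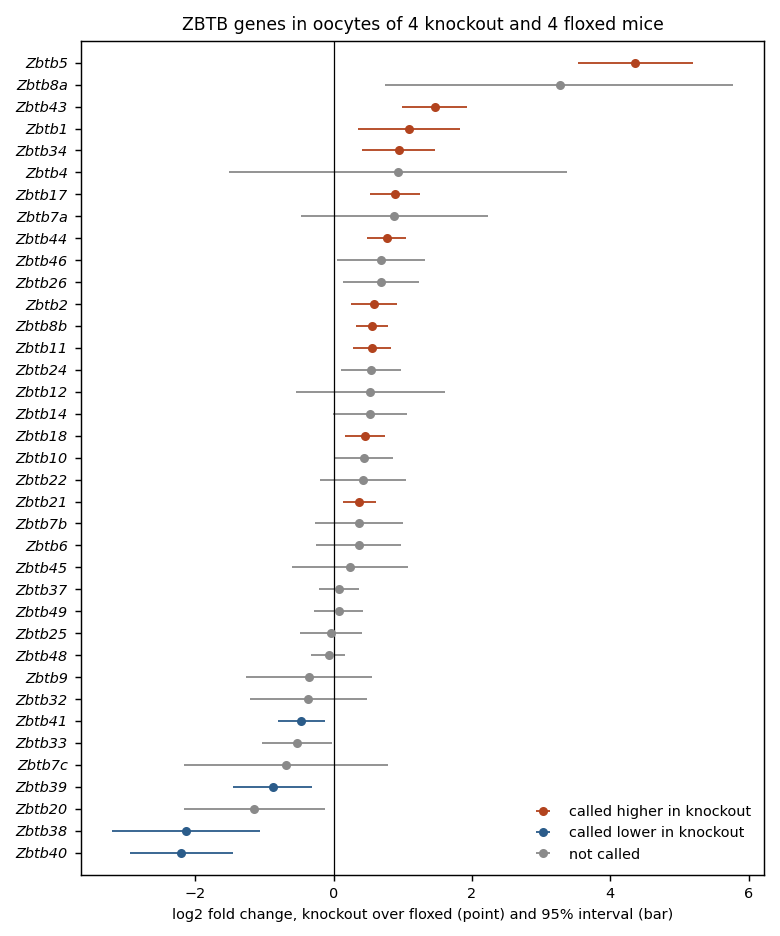
Log2 fold change of knockout over floxed oocytes (points) with the 95% interval of the fit (bars) for the 37 tested ZBTB genes, 4 mice per genotype. The 11 genes called higher run from Zbtb21 at 0.37 to Zbtb5 at 4.36, and the 4 called lower from Zbtb41 at −0.47 to Zbtb40 at −2.20.

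Several members are known as regulators of Cdkn1a, the gene of the cell cycle inhibitor p21, and Zbtb5 among them showed the largest difference in the family. Zbtb5, a repressor of Cdkn1a in human cells (chromosome 4, 44991242 to 45012412), was at 32.5, 69.7, 48.7 and 40.7 CPM in knockout mice 1 to 4 and at 1.80, 2.69, 3.23 and 1.33 CPM in floxed mice 1 to 4. Every knockout mouse was far above every floxed mouse. The mean of 47.9 ± 15.9 CPM in knockout against 2.27 ± 0.858 CPM in floxed mice (SD, n = 4 each) corresponds to a 20.5-fold rise (log2 fold change 4.36, SE 0.37, 95% interval 3.53 to 5.19). Single oocytes did not overlap either. All 24 knockout oocytes had counts (exact 95% interval of the share 85.8% to 100%), from 13.6 to 107 CPM with a median of 46.0, whereas 18 of 26 floxed oocytes had any (48.2% to 85.7%), from 0 to 9.08 CPM with a median of 1.43. Thinned to 3000000 counts per oocyte, 24 of 24 knockout and 17 of 23 floxed oocytes still had a count. These intervals treat oocytes as independent and leave out that they come from only 4 mice per genotype. An antisense gene, 1700055D18Rik, shares 726 exon bases with Zbtb5, and without strand in the library the reads of both cannot be told apart.

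Zbtb17 encodes MIZ1, the partner of MYC that activates Cdkn1a when MYC is absent. It was at 34.4, 32.3, 34.9 and 32.8 CPM in knockout mice and at 21.5, 17.4, 16.0 and 16.1 CPM in floxed mice. The knockout mice were close to each other and all above the floxed mice, a 1.85-fold rise (log2 fold change 0.89, SE 0.16, 95% interval 0.52 to 1.25). Its exons share 41 bases with Spen on the other strand, which was also called higher. Zbtb2, which represses Cdkn1a and the p53 pathway in human cells, was at 81.7, 74.4, 68.6 and 60.6 CPM in knockout and 55.9, 45.4, 45.8 and 38.8 CPM in floxed mice. The groups did not overlap, but they came within a few CPM of each other (1.5-fold, log2 fold change 0.58, SE 0.15). Zbtb2 did not pass without knockout mouse 2 or 3 (log2 fold change 0.50 and 0.55) or floxed mouse 2 or 4 (0.57 and 0.51). Zbtb49, another activator of Cdkn1a, was at 39.7, 29.7, 37.9 and 32.1 CPM in knockout and 29.7, 32.6, 32.1 and 33.8 CPM in floxed mice, with overlap and a 95% interval of −0.28 to 0.43 for the log2 fold change. Of these 5 regulators 3 rose, none fell and 2 did not pass, where 14.4% of all tested genes were called higher and 13.2% lower; the other one not called was Zbtb4, near the detection limit. Cdkn1a itself was low in both genotypes, at 1.84 ± 0.801 CPM in knockout and 1.51 ± 0.562 CPM in floxed mice (edgeR adjusted p = 0.785).

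**Figure D3:**
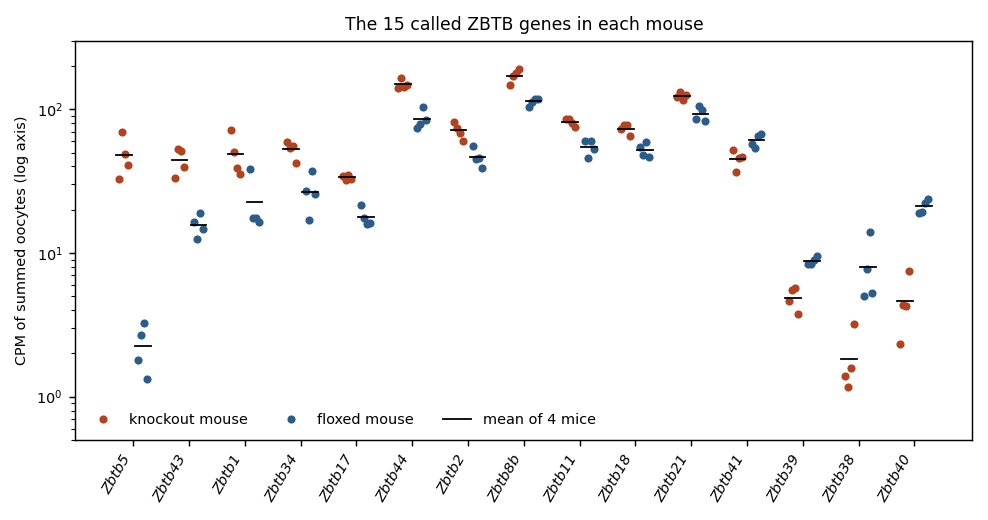
CPM of the summed oocytes of each mouse (log axis) for the 15 called ZBTB genes, with knockout mice left of floxed mice for each gene and the mean of 4 mice as a line. The genotypes overlap for Zbtb1 alone of the 15, with knockout mouse 4 at 35.2 CPM and floxed mouse 1 at 38.5 CPM; the other 10 called higher have all knockout mice above, and the 4 called lower all knockout mice below, the floxed mice.

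Zbtb43 and Zbtb34 lie next to each other on chromosome 2, with 18962 bases between them and both on the minus strand, and both rose. In male germ cells of the mouse Zbtb43 removes Z-DNA ahead of DNA methylation. It was at 33.2, 53.0, 51.1 and 39.5 CPM in knockout and 16.4, 12.6, 18.9 and 14.8 CPM in floxed mice. All knockout mice lay well above all floxed mice, and the rise was 2.75-fold (log2 fold change 1.46, SE 0.21, 95% interval 0.99 to 1.93). Among single oocytes 22 of 24 from knockout mice exceeded the highest floxed oocyte, at 24.8 CPM. Zbtb34, which has been little studied, was at 59.1, 53.4, 55.4 and 42.5 CPM in knockout and 26.8, 17.1, 37.4 and 25.5 CPM in floxed mice. Floxed mouse 3 came closest to the knockout mice, and the rise was 1.92-fold (log2 fold change 0.94, SE 0.24). Zbtb34 did not pass without floxed mouse 4 (log2 fold change 0.92).

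Another pair of neighbours differed in its calls. Zbtb1 and Zbtb25 start 663 bases apart on chromosome 12 and are transcribed away from each other. Zbtb1, which lymphocytes need for their development in the mouse, was at 71.3, 50.1, 38.8 and 35.2 CPM in knockout and 38.5, 17.4, 17.6 and 16.4 CPM in floxed mice. Mouse 1 was highest in both genotypes, and floxed mouse 1 lay above knockout mouse 4. The rise was 2.13-fold (log2 fold change 1.09, SE 0.33, 95% interval 0.35 to 1.83). It passed without knockout mouse 4 or floxed mouse 1 and failed when any of the other 6 mice was left out, with log2 fold changes of 0.80 to 1.13. Zbtb25 was at 27.5, 19.5, 16.6 and 21.5 CPM in knockout and 22.7, 20.3, 19.9 and 21.9 CPM in floxed mice, with a log2 fold change of −0.04 and a 95% interval of −0.49 to 0.41. The difference between the changes of Zbtb1 and Zbtb25 was not tested. Zbtb6 was at 20.5, 21.7, 19.5 and 22.9 CPM in knockout and 10.3, 12.6, 22.9 and 18.3 CPM in floxed mice. Zbtb6 and Zbtb26, which overlap on chromosome 2 and share 449 exon bases, were not called, with log2 fold changes of 0.36 (SE 0.27) and 0.69 (SE 0.24), and their counts are uncertain for that reason. Zbtb26 was called higher by DESeq2 (0.69), by limma on oocyte means (0.72), without knockout mouse 1 (0.78) and without mouse 1 of both genotypes (0.74).

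Zbtb8b and Zbtb8a lie 47648 bases apart on chromosome 4 and are expressed at very different levels. Zbtb8b was at 147, 169.8, 179 and 192 CPM in knockout and 105, 113, 119 and 117 CPM in floxed mice. The groups were well apart, and 17 of 24 knockout oocytes exceeded the highest floxed oocyte, at 167 CPM (1.47-fold, log2 fold change 0.56, SE 0.10). Zbtb8a had 97 counts over all knockout oocytes and 15 over all floxed oocytes. It had a count in 12 of 24 knockout and 2 of 26 floxed oocytes, was at most 3.23 CPM in any mouse, and was not called, though DESeq2 called it higher. It also shares 264 exon bases with Zbtb8os on the other strand, which was at 17.8 ± 2.90 CPM in knockout and 14.9 ± 2.28 CPM in floxed mice.

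The other members that rose were moderately abundant and changed less. Zbtb44, which has been little studied, was at 141, 165, 142 and 148 CPM in knockout and 74.0, 78.8, 104 and 84.2 CPM in floxed mice. All knockout mice lay above all floxed mice, and 21 of 24 knockout oocytes exceeded the highest floxed oocyte, at 128 CPM (1.70-fold, log2 fold change 0.77, SE 0.13). Zbtb11, mutated in a form of human intellectual disability, was at 85.4, 86.3, 80.4 and 75.6 CPM in knockout and 59.7, 45.9, 59.9 and 52.5 CPM in floxed mice. Its 1.47-fold rise (log2 fold change 0.55, SE 0.12) was without overlap of the groups. Zbtb11 shares 238 exon bases with Pcnp on the other strand, and Pcnp was also called higher. It also shares 489 with the antisense gene Zbtb11os1 and 127 with Gm28037 on the same strand. Zbtb18, the repressor RP58 of cortical neuron development, was at 73.2, 78.2, 77.3 and 65.1 CPM in knockout and 54.9, 48.3, 59.6 and 46.3 CPM in floxed mice (1.37-fold, log2 fold change 0.45, SE 0.13). The gap between its groups was small, and it did not pass without knockout mouse 2 or 3 (0.37 and 0.39) or floxed mouse 2 or 4 (0.42 and 0.40). Zbtb21 was at 122, 132, 117 and 125 CPM in knockout and 86.1, 105, 98.4 and 82.7 CPM in floxed mice (1.30-fold, log2 fold change 0.37, SE 0.11). Its call was the least firm of those higher: it passed without floxed mouse 2 and failed when any of the other 7 mice was left out, with log2 fold changes of 0.29 to 0.40, and it also failed without mouse 1 of both genotypes (0.30). Zbtb21 shares 86 exon bases with C2cd2 on the same strand, and C2cd2 was not called. Of other called members, Zbtb18 shares 54 with Gm26801 and Zbtb39 shares 74 with Gpr182, each on the other strand.

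Of the members that bind methylated CpG sites, Zbtb38 fell and the others did not pass. Zbtb38 (chromosome 9, 96682770 to 96752831) was at 1.39, 1.17, 1.57 and 3.22 CPM in knockout and 5.06, 7.72, 14 and 5.27 CPM in floxed mice. The groups did not overlap, though both were low, and the fall was 4.39-fold (log2 fold change −2.13, SE 0.48, 95% interval −3.21 to −1.06). Counts were present in 20 of 24 knockout and all 26 floxed oocytes, and single oocytes of the genotypes overlapped. Zbtb33, which encodes Kaiso, was at 14.3, 30.8, 25.2 and 24.8 CPM in knockout and 32.2, 30.7, 35.6 and 36.1 CPM in floxed mice. Knockout mouse 2 reached the floxed mice, and Zbtb33 was not called (log2 fold change −0.53, SE 0.23), though it was called lower by DESeq2 (−0.53) and without mouse 1 of both genotypes (−0.43). It shares 474 exon bases with Tmem255a on the other strand. Zbtb4 had 106 counts over all knockout and 42 over all floxed oocytes, and its 95% interval of −1.52 to 3.38 on the log2 scale spans both directions.

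The other members that fell were Zbtb40, Zbtb39 and Zbtb41. Zbtb40, whose human counterpart lies at a bone density locus (chromosome 4, 136979732 to 137048801), was at 2.31, 4.35, 4.25 and 7.48 CPM in knockout and 19.0, 19.4, 22.2 and 23.8 CPM in floxed mice. The floxed mice were close together and all far above the knockout mice, a 4.59-fold fall (log2 fold change −2.20, SE 0.33, 95% interval −2.94 to −1.46). Of 24 knockout oocytes 19 were below the lowest floxed oocyte, at 9.62 CPM, and 2 had no count. Zbtb39 was at 4.62, 5.55, 5.69 and 3.74 CPM in knockout and 8.41, 8.41, 8.97 and 9.45 CPM in floxed mice, without overlap (log2 fold change −0.88, SE 0.25). It did not pass without knockout mouse 4 (−0.81) or floxed mouse 2, 3 or 4 (−0.90, −0.88 and −0.84). Zbtb41 was at 52.2, 36.7, 46.1 and 46.7 CPM in knockout and 56.9, 54.0, 65.6 and 66.9 CPM in floxed mice, also without overlap but with little room between the groups (log2 fold change −0.47, SE 0.15). It passed without mouse 1 of either genotype and failed when any of the other 6 mice was left out, with log2 fold changes of −0.41 to −0.52; limma on oocyte means did not call it either (−0.34). Little is known of the function of Zbtb39 and Zbtb41.

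**Figure D4:**
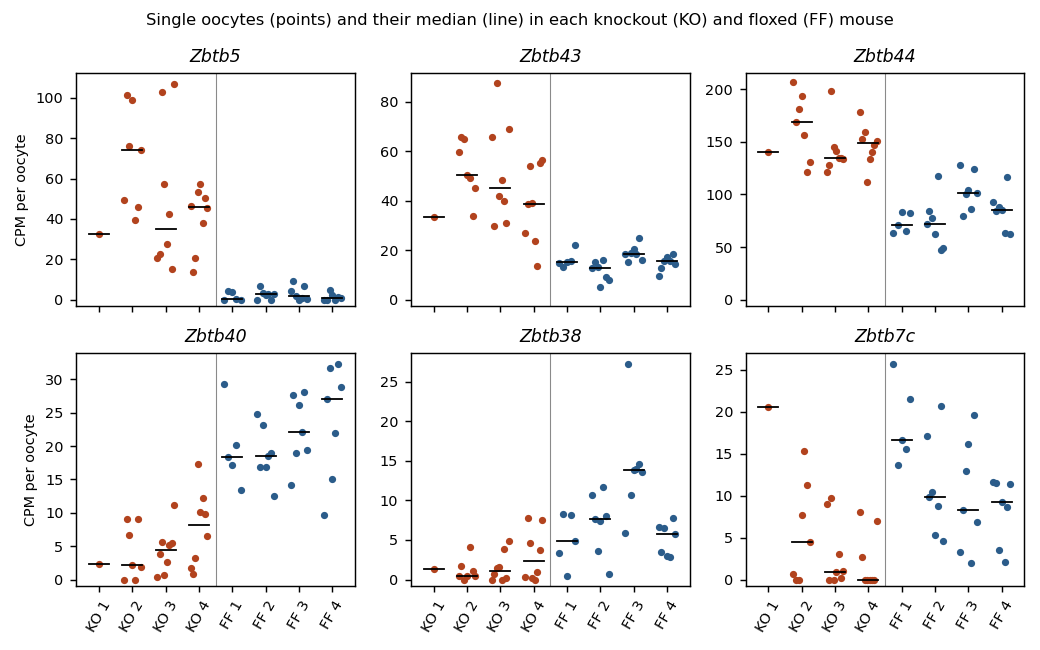
CPM in each oocyte (points) with the median per mouse (lines), for 4 knockout mice (left) and 4 floxed mice (right). Every knockout oocyte lies above every floxed oocyte for Zbtb5, 19 of 24 knockout oocytes lie below all floxed oocytes for Zbtb40, and for Zbtb7c the single oocyte of knockout mouse 1 is at 20.5 CPM.

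Members known from blood cell development gave 2 rises (Zbtb1 and Zbtb17), no fall and 6 not called among 8 tested, where 14.4% of all tested genes were called higher and 13.2% lower. Zbtb46, a marker of classical dendritic cells, was at 115, 68.9, 70.0 and 68.9 CPM in knockout and 80.7, 39.5, 41.3 and 34.6 CPM in floxed mice. Mouse 1 was the highest of both genotypes, and floxed mouse 1 lay above the other 3 knockout mice. Zbtb46 was not called in the unpaired fit of all mice (log2 fold change 0.69, SE 0.28). It was called higher without floxed mouse 1 (0.97) and without mouse 1 of both genotypes (0.76). Zbtb7b, which directs T cells to the CD4 lineage, was at 49.4, 27.2, 20.7 and 24.5 CPM in knockout and 28.9, 20.6, 21.7 and 20.5 CPM in floxed mice, again highest in mouse 1 (log2 fold change 0.36, SE 0.28). Zbtb32 was at 27.2, 23.8, 16.8 and 29.6 CPM in knockout and 51.7, 37.8, 15.9 and 17.8 CPM in floxed mice. The floxed mice alone spanned the whole range of the knockout mice (log2 fold change −0.37, SE 0.38). Zbtb7a and Zbtb20 were under 15 CPM in every mouse and not called, with log2 fold changes of 0.88 (SE 0.60) and −1.15 (SE 0.46), though DESeq2 called Zbtb20 lower (−1.17). Zbtb16, the spermatogonial stem cell factor PLZF, was not tested, with 11 counts over all knockout and 64 over all floxed oocytes; Zbtb3 was not tested either, with 62 over all knockout and 12 over all floxed oocytes.

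Mouse 1 stood apart for other members too, as it did across the table. It was the highest of its genotype in both genotypes for 9 of 37 tested members (24.3%) and for 20.7% of all tested genes, and the lowest in both for 3 members (8.11%) and 22.4% of all tested genes. One such member, Zbtb7c, was not called and was under 20 CPM on average, and it is described because of its values. It was at 20.5, 5.52, 2.99 and 2.38 CPM in knockout and 18.3, 11, 9.91 and 8.12 CPM in floxed mice. Mouse 1 was highest in both genotypes, and the other 3 knockout mice lay below all floxed mice. Zbtb7c was not called in the unpaired fit of all mice (log2 fold change −0.69, SE 0.65). It was called lower without knockout mouse 1 (−1.79) and without mouse 1 of both genotypes (−1.50). It had a count in 15 of 24 knockout and all 26 floxed oocytes. The granulosa, immune and endothelial marker sums of mouse 1 were the lowest of the floxed mice, and the granulosa and immune sums also the lowest of the knockout mice. The 2 stroma markers in the table went the other way in floxed mice, with mouse 1 the highest at 5.11 CPM. Their sum was 0 in knockout mouse 1, the lowest of its genotype.

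**Figure D5:**
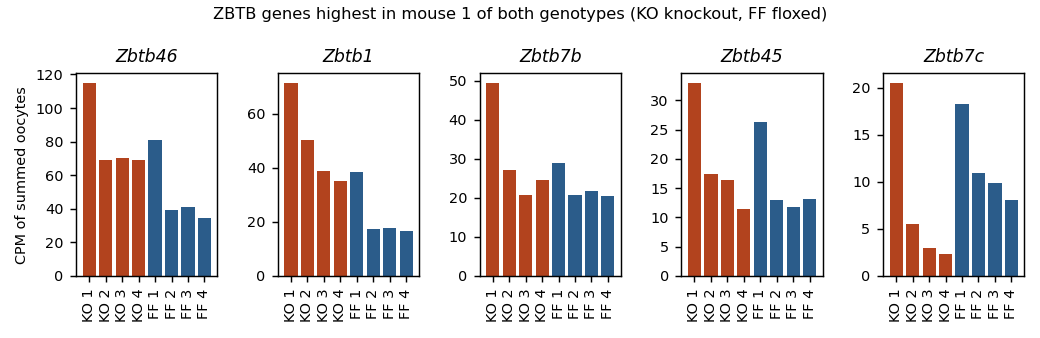
CPM of the summed oocytes in knockout mice 1 to 4 (left bars) and floxed mice 1 to 4 (right bars) for 5 ZBTB genes that were highest in mouse 1 of both genotypes, picked for that pattern. Knockout mouse 1 is a single oocyte; for Zbtb46 it is at 115 CPM and floxed mouse 1 at 80.7 CPM.

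Members at 20 CPM or more that were not called included some with narrow intervals and some with wide ones. Zbtb48 was at 77.8, 79.7, 92.5 and 82.3 CPM in knockout and 88.0, 96.0, 78.3 and 78.5 CPM in floxed mice, with a 95% interval of −0.32 to 0.17 for the log2 fold change. Zbtb37 was at 126, 177, 174 and 183 CPM in knockout and 140.2, 139, 168 and 160.3 CPM in floxed mice (interval −0.21 to 0.37), but it shares 2942 exon bases with Serpinc1, which was called higher. Zbtb10, which binds telomeres in human cells, was at 142, 205, 189 and 139 CPM in knockout and 92.6, 108, 150.0 and 132 CPM in floxed mice. Knockout mice 1 and 4 fell among the floxed mice (log2 fold change 0.44, SE 0.19). Zbtb24, mutated in the immunodeficiency, centromeric instability and facial anomalies (ICF) syndrome, was at 59.3, 52.3, 51.6 and 67.7 CPM in knockout and 46.0, 48.2, 32.7 and 28.1 CPM in floxed mice. It was higher in every knockout mouse than in any floxed mouse but did not pass (log2 fold change 0.54, SE 0.19), though DESeq2 (0.53) and limma on oocyte means (0.70) called it. Zbtb14 was at 29.1, 50.1, 52.3 and 42.6 CPM in knockout and 26.8, 22.0, 39.7 and 29.9 CPM in floxed mice (log2 fold change 0.52, SE 0.24), and was called higher without knockout mouse 1 (0.63) and without mouse 1 of both genotypes (0.58). Just inside the threshold of 0.05 was Zbtb41, at an adjusted p of 0.0450 by edgeR, and just outside were Zbtb8a at 0.0564 and Zbtb26 at 0.0633. The members not described one by one, Zbtb9, Zbtb12, Zbtb22 and Zbtb45, had log2 fold changes of −0.35 to 0.53.

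Levels also varied between oocytes of the same mouse. Within a floxed mouse, the SD of single oocytes on the log2(CPM + 1) scale, averaged over the 4 mice, had a median of 0.40 over the 21 members at 20 CPM or more and ranged from 0.21 (Zbtb37) to 0.63 (Zbtb33). The median was 0.30 over the 6007 tested genes from 20 to 152 CPM, the span of these members, with quartiles of 0.22 and 0.40. No test was made of this difference, and levels within the span were not matched. Zbtb24, at 0.61, Zbtb14, at 0.57, Zbtb32, at 0.56, and Zbtb1, at 0.55, varied nearly as much as Zbtb33. Zbtb8b, Zbtb21 and Zbtb2 had SDs of 0.27 each.

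Some genes of the same protein family carry other names and are not among the 39. Of 9 that had a row, 8 were tested, and 2 were called higher and none lower, with 14.4% and 13.2% of all tested genes called in these directions. None was lower at an unadjusted p under 0.05 by edgeR or by DESeq2 either, but 1 was called lower without knockout mouse 1. DESeq2 called 3 of the 8 higher, a count without the share of all tested genes by DESeq2 beside it. Hic1, a repressor silenced in many cancers, was at 34.9, 24.7, 13.2 and 11.2 CPM in knockout and 2.65, 0.163, 2.06 and 1.21 CPM in floxed mice. Every knockout mouse was well above every floxed mouse, a 13.4-fold rise (log2 fold change 3.75, SE 0.71, edgeR adjusted p = 0.00487). Zfp131 was at 223, 209.8, 217 and 205 CPM in knockout and 145, 135, 165 and 158 CPM in floxed mice, also without overlap (1.38-fold, log2 fold change 0.46, SE 0.09, edgeR adjusted p = 0.00498). Not called were Bcl6, Patz1, Hic2, Mynn, Gzf1 and Zfp651, with log2 fold changes of −0.95 to 1.71. Zfp651, the highest of these, was just outside the threshold (edgeR adjusted p = 0.0505). It was low, at 3.73 ± 2.32 CPM in knockout and 1.09 ± 0.597 CPM in floxed mice, with all knockout mice above all floxed mice. Bcl6, the repressor of germinal centre B cells, was at 1.28 ± 0.725 CPM in knockout and 2.48 ± 0.714 CPM in floxed mice (edgeR adjusted p = 0.167). The 8 genes had a median log2 fold change of 0.21, against −0.01 for all tested genes.

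Of 21 tested corepressors and other partners of BTB domains, 6 rose, 1 fell and 14 did not pass, where 14.4% of all tested genes were called higher and 13.2% lower. Their median log2 fold change was 0.24, against −0.01 for all tested genes. Without floxed mouse 1 the lower calls were 3, and without floxed mouse 3 they were 2. The share of all tested genes in these fits is not given. Bcor, the corepressor that BCL6 binds through its BTB domain, was at 46.2, 57.9, 50.2 and 51.7 CPM in knockout and 9.72, 11.2, 8.27 and 12.6 CPM in floxed mice. The genotypes were far apart, and the rise was 4.80-fold (log2 fold change 2.26, SE 0.19, edgeR adjusted p = 0.000191). Its relative Bcorl1 rose 1.52-fold, to 68.4 ± 9.80 CPM in knockout against 43.8 ± 3.97 CPM in floxed mice (n = 4 each, edgeR adjusted p = 0.0162), but did not pass without knockout mouse 2 (log2 fold change 0.54). Among histone deacetylases Hdac1 rose 2.35-fold, to 34.4 ± 8.64 CPM in knockout against 14.2 ± 3.92 CPM in floxed mice (edgeR adjusted p = 0.00751). Hdac3, a deacetylase that works with NCOR1, rose 1.53-fold, to 60.04 ± 5.10 CPM in knockout against 38.4 ± 1.12 CPM in floxed mice (edgeR adjusted p = 0.00591). Hdac4 rose 1.75-fold and did not pass without knockout mouse 4 or floxed mouse 4 (log2 fold change 0.74 and 0.75, against 0.80 with all mice). Ctnnd1, whose protein p120 catenin binds Kaiso, rose 1.79-fold to 236 ± 44.6 CPM in knockout against 128 ± 38.1 CPM in floxed mice (edgeR adjusted p = 0.0263). It did not pass without knockout mouse 2, 3 or 4 (0.73, 0.77 and 0.77) or floxed mouse 2 (0.80). Ctbp2 fell 1.37-fold, to 217 ± 14.5 CPM in knockout against 290.1 ± 9.75 CPM in floxed mice (edgeR adjusted p = 0.00268). The corepressor Ncor1 was not called, at 156 ± 5.65 CPM in knockout and 142 ± 9.79 CPM in floxed mice. Cul3, the ubiquitin ligase scaffold that BTB proteins bind, was at 142 ± 13.1 CPM in knockout and 113 ± 9.12 CPM in floxed mice (edgeR adjusted p = 0.0646).

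Of 11 genes of the ICF syndrome and reported targets of ZBTB proteins, 8 had a row and were tested. Zbtb24, itself among the 39 members, is 1 of these 8, and Cdkn2a, Cdkn2b and Mmp7 had no row. Of the 8 genes 2 rose and none fell, where 14.4% of all tested genes were called higher and 13.2% lower. None was lower at an unadjusted p under 0.05 by edgeR or by DESeq2 either. Dnmt3b, the DNA methyltransferase mutated in ICF syndrome, rose 2.11-fold (log2 fold change 1.08, SE 0.14, edgeR adjusted p = 0.00117). Cdca7, which human ZBTB24 activates, was at 37.7 ± 7.97 CPM in knockout and 25.6 ± 4.76 CPM in floxed mice and did not pass (edgeR adjusted p = 0.0941). Hells, of the same syndrome, was at 141 ± 9.64 CPM in knockout and 152 ± 1.39 CPM in floxed mice (edgeR adjusted p = 0.193). Trp53, repressed by ZBTB2 in human cells, rose 1.30-fold (log2 fold change 0.38, SE 0.12, edgeR adjusted p = 0.0488). Its call held without knockout mouse 1 and was lost when any of the other 7 mice was left out, with log2 fold changes of 0.27 to 0.41, and also with DESeq2 size factors (0.37) and with no filter (0.38). Afp, which Zbtb20 represses in mouse liver, was at 10.8 ± 4.89 CPM in knockout and 6.07 ± 2.63 CPM in floxed mice (edgeR adjusted p = 0.181).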

How the data were processed

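Single oocytes were sequenced after cDNA synthesis with a SMARTer Ultra Low Input kit, per the labels' protocols, without molecular identifiers and without strand. The authors deposited whole-number counts per gene, 1 column per oocyte, aligned with STAR to mm10 per the submitters' processing notes; no source used here names the counting tool. Of the columns, 3 were matched to their samples by title only.

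Counts were summed over the oocytes of each mouse and tested with edgeR 4.0.16 (quasi-likelihood, TMM, filterByExpr with a minimum count of 10), with Benjamini-Hochberg adjustment over 15029 genes and a threshold of 0.05. CPM are shares of a mouse's total. Every pair of oocytes from 1 mouse differed beyond sampling noise (chi-square per degree of freedom 5.39 to 28.25 over 150 pairs). On simulated data for this comparison (15029 genes), 14% of 1.5-fold, 50% of 2-fold and 92% of 4-fold changes were recovered, and 3.8% of calls were false. The simulation changed far fewer genes than the 4148 called in these data, so these shares do not carry over to them. Annotation was GENCODE M21; 16350 rows were matched by RefSeq accession and 186 by symbol, and 78 were not matched. Alternatives were DESeq2 1.42.0, its size factors, no filter, limma 3.58.1 on oocyte means of log2(CPM + 1), each mouse left out, mouse 1 of both genotypes left out, and mouse number as a block.

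The members and gene lists were chosen with earlier results of these data known. Every member called, or at 20 CPM or more in a genotype, is given with its value in each mouse, and every called gene of the other lists is named. The values of 1 partner gene are not reported here.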

Additional observations from a re-analysis of the deposited data

Results flagged for a closer look

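A mouse stood far from the other 3 of its genotype, by Dixon's test at the 95% level, in 5 of the 54 groups examined (each member called or at 20 CPM or more, in each genotype); chance alone flags about 1 in 20. All 5 involve mouse 1. Zbtb46 was highest in mouse 1 of both genotypes, at 115 CPM in knockout and 80.7 CPM in floxed mice. Zbtb1 was highest in floxed mouse 1, at 38.5 CPM, and Zbtb7b was highest in floxed mouse 1, at 28.9 CPM. Zbtb37 was lowest in knockout mouse 1, at 126 CPM. Knockout mouse 1 is a single oocyte, and floxed mouse 1 is the sum of 5.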

How the results depend on the processing

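Of the 15 members called, 8 were called under all 14 alternatives: Zbtb5, Zbtb43, Zbtb17, Zbtb44, Zbtb8b, Zbtb11, Zbtb38 and Zbtb40. No log2 fold change of a called member reversed. Leaving out 1 mouse gave 6 to 11 members higher and 2 to 5 lower. Without mouse 1 of both genotypes 13 were higher and 7 lower, and DESeq2 called 14 higher and 6 lower. Genes with other names lower in knockout numbered 0 to 1 when a mouse was left out and 1 without mouse 1 of both genotypes. Partners lower in knockout numbered 2 by DESeq2, by limma and with the block, 3 without mouse 1 of both genotypes, and 1 to 3 when a mouse was left out. Called ICF syndrome and target genes numbered 1 with DESeq2 size factors and with no filter, 4 with the block, and from 1 upward to 3 when a mouse was left out. With the shortest annotated 3′ untranslated region 10 of 37 members had the motif, against 17.9% of all tested genes with such a region. The cause of these changes was not tested. For the calls, the share of all tested genes under each alternative is not given. The counts therefore do not show whether a change was particular to the listed genes.

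Mouse numbers were not taken to pair the samples, since not every same-numbered pair deviated together: the correlations were 0.316, −0.004, 0.248 and 0.18 for mice 1 to 4. Of the 4 knockout mice 3 correlated best with their own number, a hint from the data and not from the design. With mouse number as a replicate block all 15 calls were kept and Zbtb10, Zbtb24, Zbtb26, Zbtb46 and Zbtb7c were added. Of limits, changes near 1.5-fold were mostly missed in the simulation, though it changed far fewer genes than were called here. How often such changes are missed in these data was not tested. Members under a few CPM rest on few counts.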
